A study of Mus musculus with 9 samples.

Results

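Transcripts of 7 mouse genes that make oxidants in the colon epithelium were followed in colon RNA: the dual oxidase Duox2 with its maturation factor Duoxa2, the second dual oxidase Duox1, the NADPH oxidase Nox1 with its organizer Noxo1 and activator Noxa1, and the inducible nitric oxide synthase Nos2. The genes were taken by symbol, 1 row each, from the 36256 genes of the deposited table, and all 7 passed the filter on low counts, as 21767 genes did. The RNA came from colon tissue of C57BL/6 mice, 3 mice in each of 3 groups, all without a genetic change named in the labels. LRWE mice were given DSS (dextran sulfate sodium, a sugar polymer toxic to the colon lining) over a modelling period of 9 days, together with a Linderae Radix extract at 2.0 g/kg. MC mice were given DSS over the same 9 days without the extract. NC mice were the controls and received neither. The sample labels of LRWE mice name DSS only, and the extract and its dose come from the series' design text. The labels do not give the age and sex of the mice, the concentration of DSS or the segment of colon taken. The comparisons set colon transcripts under DSS, and under the extract given with it, against those of the other groups, with a limit on colon position given below.

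DUOX2 is a membrane enzyme of the gut lining that releases hydrogen peroxide into the lumen, and it reaches the cell surface only together with DUOXA2. NOX1 is the main superoxide-producing oxidase of the colon epithelium and needs the organizer NOXO1 and the activator NOXA1 for its activity. NOS2 makes nitric oxide from arginine and is known to be induced by microbial products and inflammatory cytokines in epithelial cells and in macrophages. Duox2 and Duoxa2 are likewise known as inducible genes of the gut lining, answering to the microbiota and to cytokines.

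In the deposited table Duox2 (ENSMUSG00000068452) lay on chromosome 2 from 122109728 to 122128930 on the minus strand. Duoxa2 (ENSMUSG00000027225) lay beside it from 122129381 to 122133366 on the plus strand. The pair stood head to head, with 450 bases between the starts in this table. Duox1 (ENSMUSG00000033268) lay in the same cluster from 122146153 to 122178453 on the plus strand, and the cluster spanned 68726 bases from Duox2 to Duox1. Between the dual oxidase genes lay Duoxa1, the maturation factor of DUOX1, which overlapped Duoxa2 by 695 bases on the opposite strand and ended 1941 bases before Duox1. Nox1 (ENSMUSG00000031257) lay on chromosome X from 132987170 to 133038460 on the minus strand. Noxo1 (ENSMUSG00000019320) lay on chromosome 17 from 24915208 to 24919503 on the plus strand. Noxa1 (ENSMUSG00000036805) lay on chromosome 2 from 24975679 to 24985161 on the minus strand. Nos2 (ENSMUSG00000020826) lay on chromosome 11 from 78811613 to 78851080 on the plus strand. These are gene bodies with all their exons and introns, in the table's own coordinates, for which no mouse build is named.

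**Figure D1:**
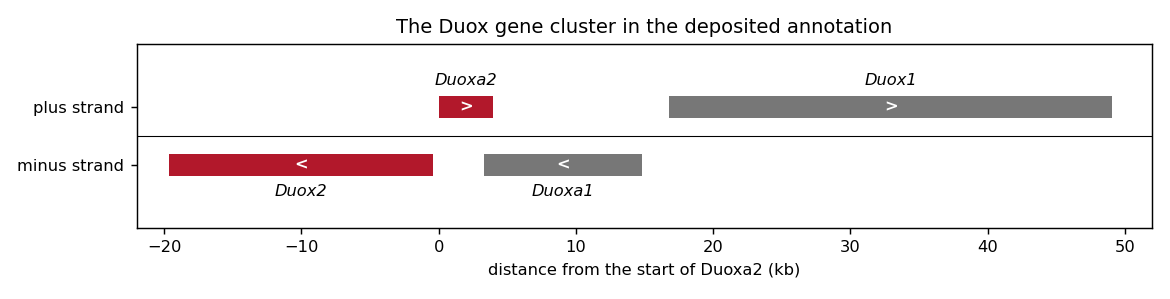
Gene bodies of the Duox cluster on the plus and minus strands, with position as distance from the start of Duoxa2 in kilobases and arrowheads giving the direction of transcription. Duox2 and Duoxa2 (red) run away from each other across a gap of 450 bases, while Duoxa1 and Duox1 (grey) lie beyond them.

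The sequences before the starts of Duox2, Duoxa2 and Nox1 are shown because Duox2 and Duoxa2 share 1 stretch of upstream DNA and had correlated levels across the libraries, and because Nox1 was lower where they were higher in MC against NC. Each is the 250 bases upstream of the start, 5′ to 3′ on the gene's own strand, from RefSeq on GRCm38.p6, which held 6 of the 7 genes. The window of Duox2 is chr2:122298228-122298477 on the minus strand, with 52.8% G and C. That of Duoxa2 is chr2:122298650-122298899 on the plus strand, with 56.4% G and C. The window of Nox1 is chrX:134111855-134112104 on the minus strand, with 38% G and C. The printed windows of Duox2 and Duoxa2 are 172 bases apart, since RefSeq puts the starts 672 bases apart, farther than the deposited table does. Capitals mark a TATAAA in Duoxa2 and a match to the NF-kB consensus in Nox1.
Duox2: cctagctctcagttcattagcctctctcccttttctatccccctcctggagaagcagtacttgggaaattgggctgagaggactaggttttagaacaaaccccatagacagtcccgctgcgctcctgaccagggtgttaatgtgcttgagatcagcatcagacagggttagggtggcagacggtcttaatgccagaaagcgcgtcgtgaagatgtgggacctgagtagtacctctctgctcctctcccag
Duoxa2: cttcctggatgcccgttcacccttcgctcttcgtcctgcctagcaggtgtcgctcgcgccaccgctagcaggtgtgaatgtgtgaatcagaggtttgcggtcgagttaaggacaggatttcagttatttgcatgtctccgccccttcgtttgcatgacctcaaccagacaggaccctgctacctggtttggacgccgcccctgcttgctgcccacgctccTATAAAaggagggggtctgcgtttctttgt
Nox1: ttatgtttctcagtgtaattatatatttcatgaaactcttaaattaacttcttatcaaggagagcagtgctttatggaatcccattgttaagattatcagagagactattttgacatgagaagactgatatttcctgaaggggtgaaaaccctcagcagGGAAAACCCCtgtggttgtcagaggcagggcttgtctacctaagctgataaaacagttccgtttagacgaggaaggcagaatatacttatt

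Both strands were searched for 4 short motifs in the 6 windows and in all 32851 windows of 250 bases. TATAAA, the core of a TATA box, stood from -30 to -25 of the start in Duoxa2 and in no other of the 6, against 12.4% of all windows. The NF-kB consensus was matched in Nox1 from -91 to -82, on the strand opposite to the gene, and in Noxa1, against 7.25% of all windows. The letters TTCNNNGAA, to which STAT factors bind, were in none of the 6 windows and in 7.02% of all. The core of the interferon response element (GAAA, any 2 bases, GAAA) was likewise in none of the 6 and in 2.98% of all. The motifs do not overlap in these windows, and a match is letters only, with binding not measured.

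Libraries held 59042063 to 65042857 counts, so that 3 counts corresponded to 0.0418 to 0.0554 CPM, which are counts scaled to a common library size. All 8 markers of colon epithelium were detected, with a summed level of 9740 to 14700 CPM in LRWE libraries, 5030 to 9540 CPM in MC libraries and 6890 to 9190 CPM in NC libraries. The LRWE 2 library stood apart, with the fewest genes with a count (21218) and a first principal component score of -220.1, and values without it are given below. Marker genes of position along the colon differed between the groups, with Cyp2c55 and the HoxB genes marking its proximal part and the last HoxD genes and Hoxb13 its distal part. The summed level of 6 proximal markers was 1890 to 5210 CPM in LRWE libraries, 432 to 1990 CPM in MC libraries and 470 to 623 CPM in NC libraries. That of 6 distal markers was 9.31 to 52 CPM in LRWE libraries, 42.9 to 155 CPM in MC libraries and 448 to 637 CPM in NC libraries. Of the distal markers, Hoxb13, Hoxd11 and Hoxd12 were at 0 in LRWE 2, and Hoxd12 and Hoxd13 were at 0 in LRWE 3. With the segment taken not stated, DSS or the extract and colon position cannot be told apart in these comparisons. That holds for every gene described below as higher or lower, rising or falling. In bulk tissue fewer cells of a type and less RNA per cell cannot be told apart either.

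Under DSS alone, Nos2, Duox2 and Duoxa2 were higher in each of the 3 MC mice than in any NC mouse, Nox1 was lower in each, and Noxo1, Noxa1 and Duox1 overlapped between the groups. Nos2 was the member that passed the test, rising to 31.2 ± 23.1 FPKM in MC colons against 0.584 ± 0.12 FPKM in NC colons (SD, n = 3 each). FPKM divide fragments by the length of the transcript and the size of the library. Fold changes and adjusted p-values are from edgeR's quasi-likelihood test on the counts of all 9 libraries, with Benjamini-Hochberg adjustment over all genes tested, and calls were made below an adjusted p of 0.05. In MC against NC, 6.37% of all genes tested were called (2.84% higher and 3.53% lower) and 39.6% had groups that did not overlap (19.5% higher and 20.1% lower). Against these, 1 of 7 members was called and 4 of 7 had groups that did not overlap, 3 of them higher in MC and 1 lower. The median log2 fold change of the 7 was 1.12, against -0.01 over all genes tested. By DESeq2, 3 of the 7 members were called, namely Nos2, Duox2 and Duoxa2, against 19.2% of all genes. The same 3 had an unadjusted p under 0.05 in edgeR, against 24.3% of all genes.

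**Figure D2:**
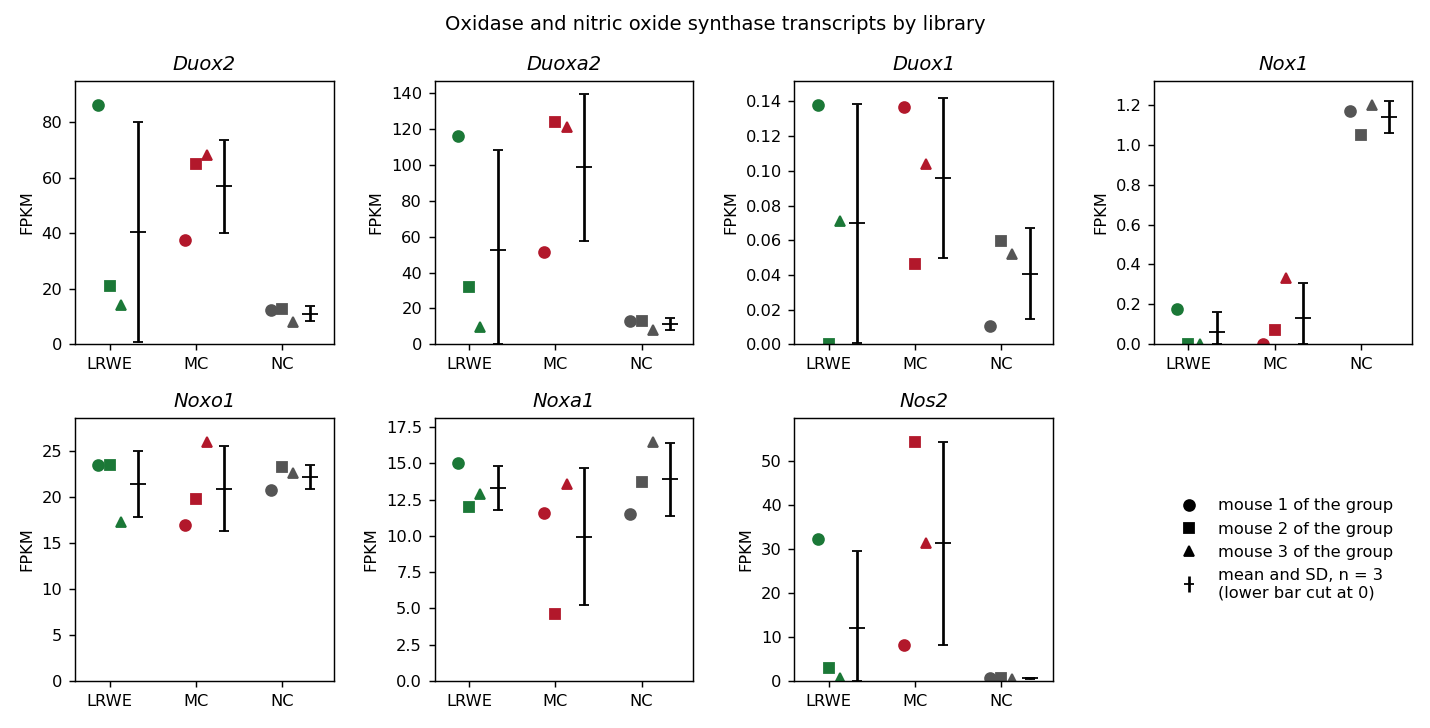
FPKM of each gene in each library, by group (LRWE, MC, NC), with 1 point per mouse and bars for the mean and SD of 3 mice; every axis starts at 0 and has its own range. Duox2, Duoxa2 and Nos2 sit above all NC mice in all 3 MC mice, Nox1 sits near 0 in both DSS groups, and the LRWE mice spread widely for Duox2, Duoxa2 and Nos2.

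Duox2, the peroxide-releasing catalytic subunit, had 37.4, 65.1 and 68 FPKM in MC mice 1, 2 and 3, against 12.2, 12.8 and 7.91 FPKM in NC mice 1, 2 and 3. The groups did not overlap, and MC mouse 1 was the lowest of its group. The fold change was 4.71, a log2 fold change of 2.24 ± 0.59 (SE; 95% interval 0.91 to 3.57), with an adjusted p of 0.0561. Duoxa2, which carries DUOX2 to the surface, had 51.4, 124 and 121 FPKM in MC mice, against 13.2, 12.9 and 7.68 FPKM in NC mice. Again MC mouse 1 was lowest in MC and above every NC mouse. Its log2 fold change was 2.99 ± 0.75 (SE; 95% interval 1.28 to 4.7), 7.93-fold, with an adjusted p of 0.0506. Neither gene passed the threshold in the fit of all 9 libraries. Both passed it when any 1 of the 3 LRWE libraries, which enter the common estimate of spread, was left out. The adjusted p-values were then 0.00962 to 0.0409 for Duox2 and 0.0177 to 0.0354 for Duoxa2. Of all genes, 8.66%, 14.4% and 4.47% were called without LRWE 1, 2 and 3, against 6.37% with all libraries. Leaving out any 1 MC or NC library gave 0.0907 to 0.183 for Duox2 and 0.0741 to 0.175 for Duoxa2, with 1.22% to 4.82% of all genes called.

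The ratio of Duoxa2 to Duox2 in FPKM was 1.37, 1.9 and 1.79 in MC mice, against 1.08, 1.01 and 0.971 in NC mice. The maturation factor thus stood above the oxidase in every MC mouse and near equality in NC mice. In LRWE mice 1, 2 and 3 the ratio was 1.35, 1.54 and 0.693. Exons of Duoxa2 share 42.8% of their 1592 bases with Duoxa1 on the opposite strand in GENCODE M21, and the labels do not say whether the counting used strand. Duoxa1 itself had mean levels of 0.352 FPKM in LRWE, 0.602 FPKM in MC and 0.133 FPKM in NC, far below those of Duoxa2.

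Duox1, the dual oxidase best known from thyroid and airway, was close to the detection limit. It had 46, 0 and 26 counts in LRWE mice 1, 2 and 3, 48, 16 and 36 counts in MC mice, and 4, 22 and 19 counts in NC mice. The 3 groups overlapped, and no library exceeded 0.138 FPKM. The log2 fold change in MC against NC was 1.12 ± 1.33 (SE; 95% interval -1.89 to 4.14; adjusted p = 0.665). The interval spans both a lower and a higher level of Duox1 in MC.

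Nos2 had 8.15, 54.3 and 31.2 FPKM in MC mice 1, 2 and 3, against 0.641, 0.665 and 0.446 FPKM in NC mice. All MC mice lay above all NC mice, and the highest MC mouse was 6.66 times the lowest, whereas the NC mice lay within 1.49 times of each other. The fold change was 47.1 with a 95% interval of 5.95 to 373, a log2 fold change of 5.56 ± 1.32 (SE) with an adjusted p of 0.0418. The call was lost when any 1 MC or NC library was left out, with adjusted p-values of 0.0592 to 0.162. The log2 fold change stayed between 5.04 and 6. In those fits the share of all genes called also fell, to 1.22% to 4.82% from 6.37%. Of 7 markers of neutrophils, which infiltrate the colon in colitis, 6 had a higher fitted level in MC than in NC, Ly6g had a lower one (log2 fold change -0.93 ± 0.86, SE; adjusted p = 0.567), and 0 were called.

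The summed level of the 7 neutrophil markers was 19.4 to 256 CPM in MC libraries and 143 to 227 CPM in NC libraries, most of it Ly6g. Without Ly6g, a step chosen after its values were seen, the other 6 summed to 3, 22.1 and 14.8 CPM in MC mice 1, 2 and 3, against 2.61, 0.615 and 2.65 CPM in NC mice. MC mouse 1 was lowest in its group for these markers, as it was for Duox2, Duoxa2 and Nos2. S100a8, S100a9 and Retnlg were at 0 in NC mice 1 and 2, and Cxcr2 was at 0 in NC mice 2 and 3, with Retnlg also at 0 in NC mouse 3. The 8 macrophage and monocyte markers summed to 79.7 to 199 CPM in MC libraries and 195 to 283 CPM in NC libraries, so they were not higher in MC. The part of neutrophils in the level of Nos2 was not tested.

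Nox1, the catalytic subunit of the constitutive oxidase, had 0, 15 and 72 counts in MC mice 1, 2 and 3, against 257, 238 and 271 counts in NC mice. In FPKM these were 0, 0.07 and 0.33 in MC mice, against 1.17, 1.05 and 1.2 in NC mice. All MC mice lay below all NC mice, and the MC mice differed widely among themselves. Its log2 fold change was -3.15 ± 1.76 (SE; 95% interval -7.12 to 0.83), and the adjusted p was 0.316. Both limma fits on FPKM and voom called Nox1 lower, with adjusted p-values of 0.00337 to 0.0249 and log2 fold changes of -0.93 to -5.56. Without MC mouse 3, which held most of the MC counts, the edgeR value was -5.27 (adjusted p = 0.237). The distal colon markers were lower in the same libraries, with all 6 fitted lower in MC than in NC and 0 of them called. Of the 6 proximal markers, 5 were called higher in MC against NC, where 2.84% of all genes tested were. The part of these markers of position in the level of Nox1 was not tested. In GENCODE M21, 15.6% of the exon bases of Nox1 are shared with Cstf2 on the other strand, and Cstf2 had a mean of 29.8 CPM in MC and 38.2 CPM in NC.

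Noxo1, the organizer subunit, had 16.9, 19.8 and 26 FPKM in MC mice, against 20.7, 23.2 and 22.6 FPKM in NC mice. The groups overlapped, with a log2 fold change of -0.2 ± 0.22 (SE; 95% interval -0.71 to 0.3; adjusted p = 0.638). Exons of Noxo1 share 70.4% of their 3013 bases with Tbl3 on the opposite strand, a larger share than in any other member, and without strand the reads of such a pair cannot be told apart. Tbl3, a ribosome biogenesis factor, had mean levels of 10.5 FPKM in MC and 11.1 FPKM in NC. Noxa1, the activator subunit, had 11.6, 4.64 and 13.6 FPKM in MC mice, against 11.5, 13.7 and 16.5 FPKM in NC mice. MC mouse 2 was the lowest of all 9 libraries, and the other 2 MC mice lay within the range of NC or beside it. Its log2 fold change was -0.57 ± 0.38 (SE; 95% interval -1.43 to 0.29; adjusted p = 0.403). Its exons share 3.09% of their 1617 bases with Entpd8 on the opposite strand.

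The 3 genes of the NOX1 complex are set side by side here, and the difference between them was not tested. In NC mice Noxo1 averaged 22.1 ± 1.31 FPKM and Noxa1 13.9 ± 2.47 FPKM, against 1.14 ± 0.0775 FPKM for Nox1 (SD, n = 3 each). In MC mice Noxo1 averaged 20.9 ± 4.64 FPKM and Noxa1 9.94 ± 4.7 FPKM, while Nox1 averaged 0.133 ± 0.174 FPKM (SD, n = 3 each). Nox1 had the lowest level of the complex in every library. The level of Noxo1 can include reads of Tbl3, with which 70.4% of its exon bases are shared, since the use of strand is not stated.

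Adding the extract to DSS gave no member that passed the test against DSS alone. LRWE mouse 1 had levels of Duox2, Duoxa2 and Nos2 within or above the range of MC mice, while LRWE mice 2 and 3 lay below every MC mouse for all 3 genes. In LRWE against MC, 0% of all genes tested were called and 28.4% had groups that did not overlap, and for the 7 members both counts were 0. None reached an unadjusted p under 0.05 in edgeR, against 23.6% of all genes, and DESeq2 called 0 of them, against 16.4% of all genes. The median log2 fold change of the members was -0.41, against -0.03 over all genes tested.

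Duox2 had 86.2, 20.9 and 14.2 FPKM in LRWE mice 1, 2 and 3, against 37.4, 65.1 and 68 FPKM in MC mice. LRWE mouse 1 was the highest of all 9 libraries, and mice 2 and 3 lay below all MC mice. For this gene the log2 fold change was -0.39 ± 0.56 (SE; 95% interval -1.66 to 0.89; adjusted p = 0.707). Duoxa2 had 116, 32.1 and 9.87 FPKM in LRWE mice, against 51.4, 124 and 121 FPKM in MC mice. For Duoxa2, LRWE mouse 1 fell among the MC mice and the others lay below all of them. Its log2 fold change was -0.79 ± 0.7 (SE; 95% interval -2.38 to 0.8; adjusted p = 0.514).

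Nos2 had 32.2, 2.9 and 0.707 FPKM in LRWE mice 1, 2 and 3, against 8.15, 54.3 and 31.2 FPKM in MC mice. Its spread in LRWE was the widest of the members with a count in every library, the highest mouse being 45.5 times the lowest, against 6.66 times in MC. Its fitted log2 fold change was -1.28 ± 1.1 (SE; 95% interval -3.76 to 1.19; adjusted p = 0.496). Without LRWE mouse 1, Nos2 was called lower at a log2 fold change of -3.77 (edgeR adjusted p = 0.0406) and Duox2 at -1.43 (adjusted p = 0.0467), while Duoxa2 at -1.94 (adjusted p = 0.0718) was not. Leaving out that mouse took the share of all genes called to 10.6%, against 0% with it. Without LRWE mouse 3 the value of Duox2 was 0.01. Without LRWE mouse 2, which stood apart, the values were -0.85 for Nos2 (adjusted p = 0.762) and -0.13 for Duox2 (adjusted p = 0.946), with -0.6 for Duoxa2 (adjusted p = 0.753) and -0.59 for Nox1 (adjusted p = 0.897).

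The 6 neutrophil markers other than Ly6g summed to 12.8, 2.73 and 0.796 CPM in LRWE mice 1, 2 and 3, against 3, 22.1 and 14.8 CPM in MC mice. Their order within LRWE was that of Duox2, Duoxa2 and Nos2. S100a8 and Cxcr2 were at 0 in LRWE mouse 2, and Csf3r, Cxcr2 and Retnlg were at 0 in LRWE mouse 3. With Ly6g the list summed to 14.9 to 72.2 CPM in LRWE libraries and 19.4 to 256 CPM in MC libraries, and their part in these levels was not tested. The macrophage and monocyte markers summed to 64.6 to 126 CPM in LRWE libraries, against 79.7 to 199 CPM in MC libraries.

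Nox1 had 38, 0 and 0 counts in LRWE mice, against 0, 15 and 72 counts in MC mice. The groups overlapped, 3 of the 6 libraries held no count of the gene, and the log2 fold change of -1.16 ± 1.7 (SE; 95% interval -5.01 to 2.69; adjusted p = 0.708) has a wide interval. It was 0.96 without MC mouse 3 (adjusted p = 0.804) and -7.86 without LRWE mouse 1 (adjusted p = 0.0958). Noxo1 had 23.5, 23.5 and 17.3 FPKM in LRWE mice, against 16.9, 19.8 and 26 FPKM in MC mice, with a log2 fold change of 0.21 ± 0.22 (SE; 95% interval -0.3 to 0.72; adjusted p = 0.596). Noxa1 had 15, 12 and 12.9 FPKM in LRWE mice, against 11.6, 4.64 and 13.6 FPKM in MC mice, with a log2 fold change of 0.54 ± 0.38 (SE; 95% interval -0.32 to 1.4; adjusted p = 0.401). Both cofactors kept overlapping ranges. For Duox1 the log2 fold change was -0.41 ± 1.31 (SE; adjusted p = 0.877).

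Relative to untreated controls, LRWE mice had higher Duox2 and Nos2 and lower Nox1 in each of 3 mice, and Duoxa2 overlapped with NC through LRWE mouse 3. No member passed the test. In LRWE against NC, 10.0% of all genes tested were called (6.04% higher and 3.97% lower) and 37.1% had groups that did not overlap (16.6% higher and 20.5% lower). Of the 7 members 0 were called, and 3 had groups that did not overlap, 2 of them higher and 1 lower. At an unadjusted p under 0.05 edgeR had 4 members, against 26.9% of all genes, and DESeq2 called 3 (Duox2, Duoxa2 and Nos2), against 20.8% of all genes. The median log2 fold change of the members was 0.72, against -0.05 over all genes tested. This comparison shares the NC libraries with MC against NC and the LRWE libraries with LRWE against MC.

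Duox2 averaged 40.5 ± 39.8 FPKM in LRWE mice and 11 ± 2.66 FPKM in NC mice (SD, n = 3 each), a log2 fold change of 1.85 ± 0.58 (SE; 95% interval 0.54 to 3.16; adjusted p = 0.076). For Duoxa2 the means were 52.7 ± 56 FPKM in LRWE mice and 11.3 ± 3.1 FPKM in NC mice (SD, n = 3 each), with a log2 fold change of 2.19 ± 0.73 (SE; 95% interval 0.54 to 3.85; adjusted p = 0.0914). Nos2 averaged 11.9 ± 17.6 FPKM in LRWE mice and 0.584 ± 0.12 FPKM in NC mice (SD, n = 3 each), with a log2 fold change of 4.28 ± 1.24 (SE; 95% interval 1.46 to 7.09; adjusted p = 0.0619). For these 3 genes the SD within LRWE was about as large as the mean or larger. Without LRWE mouse 3, when 4.46% of all genes were called, all 3 were called, with edgeR adjusted p-values of 0.0481 for Duox2, 0.0352 for Duoxa2 and 0.0373 for Nos2. Without LRWE mouse 1, whose levels were the highest, 11.4% of all genes were called. The log2 fold changes were then 0.8 for Duox2, 1.05 for Duoxa2 and 1.78 for Nos2, and none of these was called. Without LRWE mouse 2 they were 2.11 for Duox2 (adjusted p = 0.0759), 2.39 for Duoxa2 (adjusted p = 0.11) and 4.71 for Nos2 (adjusted p = 0.0612).

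Nox1 averaged 0.0598 ± 0.104 FPKM in LRWE mice and 1.14 ± 0.0775 FPKM in NC mice (SD, n = 3 each), with 0 counts in 2 of the 3 LRWE mice. A log2 fold change of -4.31 ± 1.87 (SE; 95% interval -8.53 to -0.08; adjusted p = 0.178) was fitted. Without LRWE mouse 1, the only LRWE mouse with counts of Nox1, the gene was called lower (edgeR adjusted p = 0.0446), as 11.4% of all genes were called in either direction. Without LRWE mouse 2 the log2 fold change of Nox1 was -3.74 (adjusted p = 0.245). Both limma fits and voom called it lower with all libraries, with adjusted p-values of 0.00181 to 0.011. The 2 LRWE mice without Nox1 counts held the lowest distal marker scores of the 9 libraries (-7.16 and -6.36, mean log2 CPM minus that of NC). Within the DSS groups the order was not the same throughout: MC mouse 1 had 0 counts of Nox1 at a score of -4.16, LRWE mouse 1 had 38 at -4.26, and MC mouse 2 had 15 at -1.51, against 72 at -3.55 in MC mouse 3. In LRWE against NC, 3 of the 6 distal markers were called lower and 6 of the 6 proximal markers higher. Over all genes tested, 3.97% were called lower and 6.04% higher. The part of colon position in the level of Nox1 was not tested.

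Noxo1 and Noxa1 had nearly equal levels in these groups, with log2 fold changes of 0 ± 0.22 (SE; 95% interval -0.5 to 0.51; adjusted p = 0.994) for Noxo1 and -0.03 ± 0.38 (SE; 95% interval -0.88 to 0.83; adjusted p = 0.974) for Noxa1. The sign of Noxo1 changed between scalings. Duox1 gave 0.72 ± 1.33 (SE; adjusted p = 0.782).

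**Figure D3:**
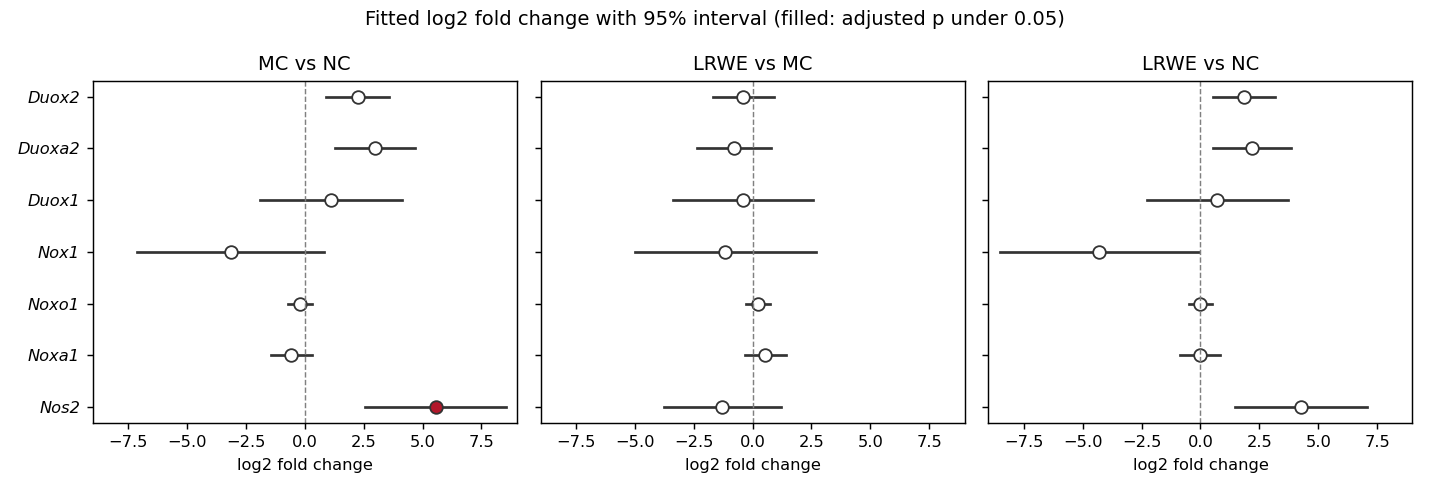
Fitted log2 fold change (x axis) of each gene in the 3 comparisons, with bars for the 95% interval and a filled point for an adjusted p under 0.05. Nos2 in MC against NC is the only filled point, and all intervals of LRWE against MC include 0.

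Ordered by mean FPKM, the genes stood in another order in each group. In LRWE mice the order was Duoxa2, Duox2, Noxo1, Noxa1, Nos2, Duox1 and Nox1. In MC mice it was Duoxa2, Duox2, Nos2, Noxo1, Noxa1, Nox1 and Duox1. In NC mice Noxo1, whose level can include reads of Tbl3, came first, followed by Noxa1, Duoxa2, Duox2, Nox1, Nos2 and Duox1. In NC the ranges of Noxa1, Duoxa2 and Duox2 overlapped, and Noxo1, Nox1 and Nos2 stood clear of their neighbours. In MC the ranges of Duoxa2, Duox2, Nos2 and Noxo1 overlapped in turn, Noxa1 stood clear of its neighbours, and Nox1 and Duox1 overlapped. In LRWE Duoxa2, Duox2 and Noxo1 overlapped in turn, Noxo1 stood clear of Noxa1, Noxa1 overlapped with Nos2, and Duox1 overlapped with Nox1. The ratio of Nos2 to Duox2 in FPKM was 0.374, 0.139 and 0.0497 in LRWE mice, 0.218, 0.834 and 0.458 in MC mice, and 0.0527, 0.0519 and 0.0564 in NC mice. It was nearly constant in NC, above NC in every MC mouse, and in LRWE mouse 3 below the NC values.

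Across the 9 libraries, log2 CPM of Duox2 and Duoxa2 had a Pearson correlation of 0.98, and 0.96 after group means were removed. Nos2 had 0.98 with Duox2 and 0.99 with Duoxa2, or 0.95 and 0.97 within groups. Nox1 had -0.28 with Duox2 over the 9 libraries and 0.84 within groups, where LRWE mouse 1 and MC mouse 3 were high for both. With 0 counts of Nox1 in 2 LRWE mice and 1 MC mouse, these values rest partly on the count added before taking logs. Noxo1 and Noxa1 had 0.6, or 0.49 within groups. All of these are descriptions of 9 libraries that share groups and a scaling, with no test. MC mouse 2 departed from the rest in the ratio of Noxo1 to Noxa1, which was 4.27 there and 1.35 to 1.96 in the other 8 libraries.

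The 5 genes most like Duox2 in log2 CPM, among 14042 candidates and over 9 libraries, were Calm2 (correlation 0.969), Gml (0.962), Map4 (0.961), Clca4b (0.96) and Hk1 (0.957). Calm2 encodes calmodulin, Hk1 a hexokinase and Map4 a microtubule-binding protein. The 5 most like Nos2 were Gml (0.991), Calm2 (0.981), Clca4b (0.974), Steap4 (0.97) and Cxcl2 (0.968). Gml had 0 counts in LRWE mouse 3 and in every NC mouse, and Cxcl2 had 0 in LRWE mouse 3 and NC mouse 2. Steap4 encodes a metalloreductase and Cxcl2 a chemokine that draws neutrophils. Clca4b had 539, 55.9 and 21 CPM in LRWE mice 1, 2 and 3, 61, 918 and 406 CPM in MC mice, and 5.5, 3.86 and 3.16 CPM in NC mice. It was high in the same mice as Nos2, with LRWE mouse 1 above MC mouse 1, a likeness that follows from its choice by correlation. Calm2 spanned a narrow range, from 470 to 607 CPM in LRWE, 522 to 643 CPM in MC and 440 to 447 CPM in NC.

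The 5 most like Nox1 were Abo (0.982), Slitrk6 (0.957), Nrap (0.955), Aqp8 (0.954) and Anpep (0.954). Aqp8 encodes a water channel of colon surface cells, Abo a blood-group glycosyltransferase and Anpep a peptidase of the brush border. Aqp8 had 664, 342 and 190 CPM in LRWE mice 1, 2 and 3, 142, 509 and 689 CPM in MC mice, and 1600, 2120 and 1450 CPM in NC mice. As for Nox1, every DSS-treated mouse lay below every NC mouse, and LRWE mouse 1 was highest in its group. Such likeness follows from the choice of these genes by correlation. Abo had 3.2, 0.517 and 0.487 CPM in LRWE mice, 0.63, 1.7 and 2.23 CPM in MC mice, and 7.01, 7.84 and 6.67 CPM in NC mice.

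**Figure D4:**
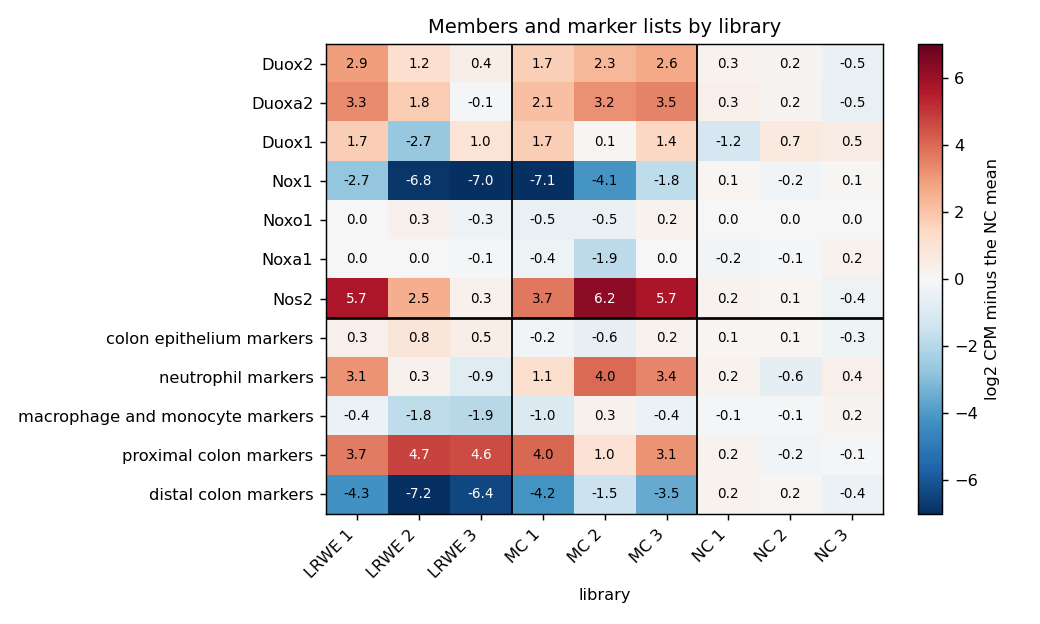
Log2 CPM (2 counts added) of each gene, and the mean log2 CPM of each marker list, in each library minus the mean of the NC libraries, with libraries across and red for above NC. Nos2, Duox2, Duoxa2 and the neutrophil markers are high together in LRWE mouse 1 and MC mice 2 and 3. All of them are lowest among the DSS-treated mice in LRWE mouse 3, where Nos2 and Duox2 remain slightly above NC. Nox1 and the distal markers are blue in every LRWE and MC library.

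Around these genes, 7 lists of related genes held 76 symbols, of which 69 were tested. In MC against NC 5 were called higher and 3 lower, in LRWE against MC 0, and in LRWE against NC 9 higher and 4 lower, beside the background shares given above. For the count of 0 in LRWE against MC, edgeR had 25 of the 69 at an unadjusted p under 0.05, against 23.6% of all genes, and DESeq2 called 7, against 16.4% of all genes.

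Of 15 other genes of nitric oxide metabolism, Ddah1 rose in MC and in LRWE. DDAH1 breaks down methylated arginines, which inhibit nitric oxide synthases. It had 18.3, 15.6 and 14.2 FPKM in LRWE mice, 13.4, 17.2 and 18.3 FPKM in MC mice, and 1.53, 1.23 and 2.02 FPKM in NC mice. The log2 fold change was 3.22 ± 0.24 (SE; edgeR adjusted p = 0.00145) in MC against NC and 3.37 ± 0.24 (SE; adjusted p = 0.00105) in LRWE against NC, and both calls held without any 1 library. Unlike Nos2, Ddah1 was at a like level in all 6 DSS-treated mice. The 15 genes had a median log2 fold change of 0.75 in MC against NC.

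Arg2, the mitochondrial arginase that competes for arginine, rose in LRWE against NC by a log2 fold change of 3.55 ± 0.61 (SE; adjusted p = 0.0114), and in MC against NC its value was 2.06 ± 0.58 (SE; adjusted p = 0.0679). Arg2 had 26, 52.9 and 32.4 FPKM in LRWE mice, 26.5, 4.94 and 13.6 FPKM in MC mice, and 2.9, 3.63 and 3.54 FPKM in NC mice. Slc7a1, a transporter that brings arginine into cells, rose in LRWE against NC by 1.15 ± 0.25 (log2, SE; adjusted p = 0.0254). The calls of Arg2 and Slc7a1 were lost without each NC library in turn, and that of Slc7a1 also without LRWE mouse 2 or 3. In LRWE against MC none of the 15 was called, and the most abundant, Ass1, which remakes arginine, and Nostrin had log2 fold changes of -1.47 ± 0.6 (SE; adjusted p = 0.193) and 0.63 ± 0.21 (SE; adjusted p = 0.165).

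Of the peroxidases that use hydrogen peroxide, 3 of 5 were tested. Lpo, the lactoperoxidase of mucosal secretions, rose in both DSS groups. It had 5.86, 4.17 and 5.6 FPKM in LRWE mice, 3.78, 3.56 and 3.52 FPKM in MC mice, and 0.842, 0.444 and 0.743 FPKM in NC mice. Log2 fold changes were 2.27 ± 0.28 (SE; adjusted p = 0.00521) in MC against NC and 2.95 ± 0.29 (SE; adjusted p = 0.00236) in LRWE against NC, and both held without any 1 library. Between LRWE and MC the values were 0.69 ± 0.27 (SE; adjusted p = 0.185) for Lpo and -0.85 ± 0.39 (SE; adjusted p = 0.227) for Pxdn, and neither was called.

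Of 14 genes that remove superoxide or hydrogen peroxide, Prdx6, a peroxiredoxin, fell in both DSS groups. It had 184, 238 and 137 FPKM in LRWE mice, 93.8, 388 and 190 FPKM in MC mice, and 890, 1100 and 646 FPKM in NC mice. The log2 fold change was -2.15 ± 0.47 (SE; adjusted p = 0.0324) in MC against NC and -2.17 ± 0.47 (SE; adjusted p = 0.025) in LRWE against NC. Leaving out MC mouse 1 or 3 or any 1 NC mouse ended the call in MC against NC, and leaving out LRWE mouse 1 or 3 or any 1 NC mouse ended it in LRWE against NC. In LRWE against NC the peroxiredoxins Prdx1 (0.85 ± 0.22, log2 fold change with SE; adjusted p = 0.0468) and Prdx5 (1.08 ± 0.26; adjusted p = 0.0363) rose. Sod3, the extracellular superoxide dismutase, fell there (-2.28 ± 0.6, log2 with SE; adjusted p = 0.0459). The calls of Prdx1 and Prdx5 were lost without LRWE mouse 2 or 3, MC mouse 1 or 3 or any NC mouse, and that of Sod3 without LRWE mouse 3, MC mouse 1 or 3 or any NC mouse. Between LRWE and MC none of the 14 was called, with -0.02 ± 0.45 (SE; adjusted p = 0.988) for Prdx6 and 0.66 ± 0.26 (SE; adjusted p = 0.187) for Prdx5.

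The 6 subunits of the phagocyte oxidase had a median log2 fold change of -0.8 in MC against NC, where 0 were called, and of -1.17 in LRWE against NC. Cyba, the p22phox subunit that NOX1 also uses, had 93.5, 124 and 77.7 FPKM in LRWE mice, 68.5, 68.9 and 71.4 FPKM in MC mice, and 48.8, 51 and 55.3 FPKM in NC mice. It rose in LRWE against NC (0.99 ± 0.22, log2 with SE; adjusted p = 0.0274), a call lost without each of the 3 NC mice in turn. In MC against NC its log2 fold change was 0.3 ± 0.22 (SE; adjusted p = 0.462), and in LRWE against MC 0.7 ± 0.22 (SE; adjusted p = 0.164). Ncf4, the p40phox subunit, fell in LRWE against NC (-3.25 ± 0.76, log2 with SE; adjusted p = 0.0319), a call lost without LRWE mouse 2 or 3, MC mouse 3 or any NC mouse. Rac2, the GTPase of phagocytes, had -0.17 ± 0.61 (SE; adjusted p = 0.896) in MC against NC and -0.84 ± 0.61 (SE; adjusted p = 0.418) in LRWE against MC.

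The macrophage and monocyte list, whose cells use this oxidase, had 1 of 8 markers called lower in LRWE against NC, against 3.97% of all genes tested. Fcgr1, a marker of this list, was at 0 in LRWE mice 2 and 3. The summed level of the list was 64.6 to 126 CPM in LRWE libraries, 79.7 to 199 CPM in MC libraries and 195 to 283 CPM in NC libraries. The part of these cells in the values of the oxidase subunits was not tested. Of the other NADPH oxidase genes 3 were tested and none was called in any comparison. The GTPase Rac1 had log2 fold changes of 0.12 ± 0.18 (SE; adjusted p = 0.74) in MC against NC, 0.46 ± 0.18 (SE; adjusted p = 0.189) in LRWE against MC and 0.58 ± 0.18 (SE; adjusted p = 0.0788) in LRWE against NC. For Duoxa1 they were 1.92 ± 1.35 (SE; adjusted p = 0.43), -0.67 ± 1.3 (SE; adjusted p = 0.784) and 1.25 ± 1.32 (SE; adjusted p = 0.603) in the same comparisons.

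Of 18 cytokines, receptors and sensors that act upstream of these genes, 14 were tested. Ifngr1, a chain of the interferon gamma receptor, fell in MC against NC (-1.1 ± 0.19, log2 with SE; adjusted p = 0.0133) and in LRWE against NC (-0.76 ± 0.18; adjusted p = 0.0355). It had 57, 54.3 and 54 FPKM in LRWE mice, 42.2, 63.5 and 44.3 FPKM in MC mice, and 97.6, 114 and 76.3 FPKM in NC mice. The other chain, Ifngr2, rose in LRWE against NC (0.99 ± 0.21, log2 with SE; adjusted p = 0.022). Calls of Ifngr1 were lost without MC mouse 1 or 3 or NC mouse 1 or 2 in MC against NC, and without any LRWE mouse, MC mouse 3 or NC mouse 1 or 2 in LRWE against NC. That of Ifngr2 was lost without LRWE mouse 2 or 3 or NC mouse 1 or 3. Of the ligands, Ifng was scarce. It had 13, 23 and 0 counts in LRWE mice, 0, 4 and 0 in MC mice, and 8, 6 and 4 in NC mice. Tnf had 649, 316 and 67 counts in LRWE mice, 693, 1100 and 482 in MC mice, and 108, 114 and 226 in NC mice. Il1b had 539, 98 and 0 counts in LRWE mice, 103, 623 and 466 in MC mice, and 30, 42 and 51 in NC mice. In MC against NC, Tnf had a log2 fold change of 2.23 ± 0.7 (SE; adjusted p = 0.0926). That of Il1b was 3.18 ± 1.48 (SE; adjusted p = 0.228), and neither was called. Of the 14 tested, 8 had a positive log2 fold change there. Il22 had counts in 1 library (NC mouse 3, 31 counts) and Il17a in 1 (LRWE mouse 1, 8 counts). None was called in LRWE against MC, with 0.34 ± 0.18 (SE; adjusted p = 0.287) for Ifngr1 and 0.88 ± 0.28 (SE; adjusted p = 0.164) for Il17rc, a chain of the interleukin-17 receptor.

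Of 14 transcription factors of the inducing pathways and of the gut lining, 3 rose and 1 fell in MC against NC, with a median log2 fold change of 0.26. Stat3, the factor downstream of interleukin-22 and interleukin-6, had 15, 11.4 and 8.78 FPKM in LRWE mice, 13.3, 32.2 and 12.5 FPKM in MC mice, and 7.43, 7.34 and 6.71 FPKM in NC mice. It rose in MC against NC (1.25 ± 0.31, log2 with SE; adjusted p = 0.0488), a call lost without LRWE mouse 3 or any 1 MC or NC mouse. Nfkbiz, an inducible NF-kB cofactor, rose (0.83 ± 0.19; adjusted p = 0.0383), a call lost without LRWE mouse 3, MC mouse 2 or 3 or any NC mouse. Gata6, a zinc-finger factor of the gut epithelium, fell (-1.2 ± 0.22; adjusted p = 0.0179), a call lost without MC mouse 1 or any NC mouse.

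Cdx2, a homeobox factor of the intestine, rose in MC against NC (2.5 ± 0.53, log2 with SE; adjusted p = 0.0277) and in LRWE against NC (3.74 ± 0.55; adjusted p = 0.00664). It had 102, 139 and 123 FPKM in LRWE mice, 72.7, 18.9 and 78.1 FPKM in MC mice, and 7.23, 12.7 and 8.67 FPKM in NC mice. The call in LRWE against NC held without any 1 library, and that in MC against NC was lost without MC mouse 1 or 3 or any NC mouse. The proximal colon markers were lowest within MC in mouse 2, as Cdx2 was, and their part in its level was not tested. None of the 14 was called in LRWE against MC, with 1.24 ± 0.5 (SE; adjusted p = 0.19) for Cdx2 and 0.35 ± 0.25 (SE; adjusted p = 0.415) for Irf1, an interferon-induced factor.

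**Figure D5:**
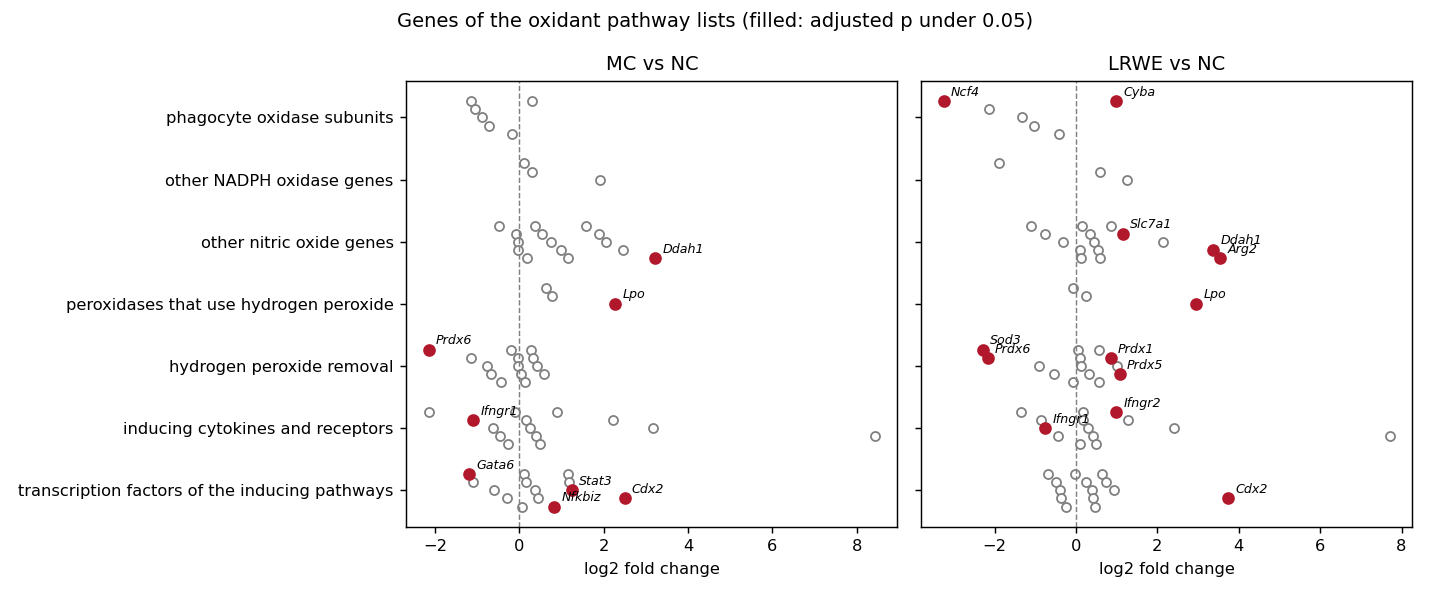
Fitted log2 fold change (x axis) of each tested gene of the 7 related lists in MC against NC and in LRWE against NC, with filled and named points for an adjusted p under 0.05. Ddah1, Lpo and Cdx2 lie to the right in both panels and Prdx6 and Ifngr1 to the left, with 8 genes called in MC against NC and 13 in LRWE against NC.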

How the data were processed

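Poly(A) RNA of 9 mouse colons was sequenced, 1 library a mouse. Per the submitters' processing notes, the tools were HISAT2 2.0.4, StringTie 1.3.4d, cutadapt 1.9 and edgeR with no version given. The notes also name the build hg38, which is no mouse build, so the build of the deposited coordinates is unknown here. Per the file headers, the authors deposited FPKM (scaled to transcript length and library size) and counts per gene. The deposited counts are whole numbers and were treated like estimated counts, which the notes neither state nor deny.

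Counts were tested in edgeR 4.0.16 (R 4.3.3) with filterByExpr, TMM scaling, 1 quasi-likelihood model of all 9 libraries with a mean per group, and Benjamini-Hochberg adjustment over 21767 genes. FPKM were used for levels, and for tests only in the limma alternatives named below. Standard errors are the log2 fold change over the root of the F statistic, and the test was checked on simulated counts. Intervals cover spread between mice, while the floor of 3 counts covers counting error only, since reads carried no molecular identifiers and can be copies of 1 molecule. Median standard errors of a log2 fold change lay between 0.413 and 0.415 in the 3 comparisons.

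The 7 genes, the related lists and the marker lists were chosen with earlier results of these data known. Named were all 7 genes, every called gene of a related list (with none called, the 2 with the highest mean FPKM), and for Duox2, Nox1 and Nos2 the 5 genes of the highest correlation of log2 CPM with a mean of at least 1 CPM, leaving out predicted loci. Nox3 was not matched in the table. Genes named outside this rule (Duoxa1, Cstf2, Tbl3, Ifng, Tnf, Il1b, Il22, Il17a and the markers) were chosen for their overlap or after their values were seen. Alternatives were DESeq2 1.42.0, upper-quartile scaling, no filter, the 2 compared groups alone, limma 3.58.1 on log2(FPKM + 1) and log2(FPKM + 0.1), voom with sample quality weights, a replicate block, and leaving out each library.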

Additional observations from a re-analysis of the deposited data

How the results depend on the processing

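In MC against NC 1 member was called as reported, 3 by DESeq2, 3 in a fit of only those 2 groups, 4 by limma on log2(FPKM + 1), 4 on log2(FPKM + 0.1), 4 by voom with sample quality weights and 0 without the filter on low counts. In LRWE against MC the count of 0 became 2 by voom (Duoxa2 and Nos2), and in LRWE against NC the count of 0 became 3 by DESeq2 and 1 (Nox1) by each limma fit and by voom. Within LRWE, voom gave a weight of 2.87 to mouse 3, where Duoxa2 and Nos2 were lowest in the group. The weights of mice 1 and 2 were 0.494 and 0.247. Leaving out 1 library at a time gave 0 to 3 members called in MC against NC, 0 to 2 in LRWE against MC and 0 to 3 in LRWE against NC. The shares of all genes called in those fits were 1.22% to 14.4%, 0% to 10.6% and 2.00% to 11.9%, in the same order. Without any 1 NC library the share was 1.22% to 2.09% in MC against NC and 2.00% to 2.45% in LRWE against NC, so calls were lost among all genes too. Related genes called, 8 in MC against NC, were 21 by DESeq2, 18 in the fit of 2 groups, 22 by voom and 2 to 14 with a library left out. In LRWE against MC they were 7 by DESeq2, 12 by voom and 0 to 7 with a library left out, and in LRWE against NC, 13 as reported, 21 by DESeq2, 28 by voom and 3 to 17 with a library left out. The shares over all genes moved too: against 6.37% as reported in MC against NC they were 19.2% by DESeq2, 18.2% in the fit of 2 groups, 10.9% and 8.69% by limma on log2(FPKM + 1) and log2(FPKM + 0.1), 23.9% by voom and 3.00% without the filter. In LRWE against MC they were 16.4% by DESeq2 and 13.3% by voom, against 0% as reported, and in LRWE against NC 20.8% by DESeq2, 13.4% by limma on log2(FPKM + 1) and 28.2% by voom, against 10.0% as reported. The libraries behind changed calls of single genes are named with those genes, and the cause of these shifts was not tested.

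Replicate numbers did not pair the libraries: deviations from the group means of same-numbered libraries correlated at -0.162 to 0.031, with 0 of 9 pairs over 0.1. With the replicate number as a block, 0 members were called in MC against NC, and 3 related genes were called in MC against NC, 0 in LRWE against MC and 4 in LRWE against NC. Of all genes, 1.41%, 0% and 2.76% were called in that fit, in the same order of comparisons.

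Direction changed in 7 of the 21 log2 fold changes of the members. The log2 fold change of Noxo1 in LRWE against NC was 0 by DESeq2, -0.05 by upper-quartile scaling, -0.07 without the filter, -0.05 and -0.06 on log2(FPKM + 1) and log2(FPKM + 0.1), -0.24 by voom and -0.16 to 0.14 with a library left out. That of Noxo1 in LRWE against MC was -0.04 by voom. Duox1 in LRWE against NC was -0.05 with the replicate block. With a library left out, Duox1 ran from -0.16 to 1.3 in LRWE against NC and from -1.28 to 0.17 in LRWE against MC, Noxa1 from -0.12 to 0.1 in LRWE against NC, Duox2 from -1.43 to 0.01 in LRWE against MC and Nox1 from -7.86 to 0.96 in LRWE against MC. Duox1 and Nox1 had 0 counts in some libraries, and the cause was not tested.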
